A study of Mus musculus with 35 samples.

Results

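Domains of H3K27me3, the trimethylation of lysine 27 on histone H3, were compared between c13 oocyte-like cells and c7 oogonia-like cells, the cultured stages on either side of the step from mitotic germ cells to oocytes. All domains of the 2 deposited lists on autosomes 1 to 19 were taken, 2860 in c13 and 4317 in c7, 7177 in all, out of 167982 regions in the 13 lists of the series. Both stages were grown from H18, a mouse embryonic stem cell line of wild-type genotype that carries Prdm1-mVenus and Dppa3-ECFP reporters, so both share 1 line and its reporters. The labels name these cells d4c13 and d4c7, and the title of the series describes growth without ovarian somatic cells. Chromatin was profiled by CATCH-seq, a native immunoprecipitation for few cells in which micrococcal nuclease cuts the chromatin and carrier DNA limits losses. Other lists used beside the comparison came from c34 oocyte-like cells of the same line, from E18.5 oocytes of animals with the same reporters and from germinal vesicle (GV) oocytes of BDF1 animals, all of wild-type genotype.

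Per the labels, 2 libraries of H3K27me3 were made in c13 and 2 in c7, but each stage has 1 list of positions with no score. No difference could therefore be set against replicate spread, no test was possible, and the values below describe these lists. Read depth and calling threshold are unknown for both lists, so their part in any difference was not tested. A domain in more of the cells and a stronger mark per cell cannot be told apart in such lists. With H3K27me3 as the only list of c7, the c7 label could not be checked against other marks. In c13 the germ cell genes Ddx4, Dazl, Prdm1, Dppa3 and Tfap2c all carried H3K4me3, but so did 72.6% of all protein-coding genes. All of them except Dppa3 also carried H3K27me3 in c13, so these marks do not check the c13 label either. The c13 lists stand apart in another respect: 75.3% of the H3K27me3 length in c13 also lay in the list of H3K36me3, a mark of transcribed gene bodies, whereas this share was 21.9% in c34, 27.6% in E18.5 oocytes and 14.7% in GV oocytes. The specificity and the labels of the c13 libraries were not tested, and every c13-only length and gained gene below rests on them, so length, gene density and gene counts are also given outside c13 H3K36me3.

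H3K27me3 is written by Polycomb repressive complex 2 through its catalytic subunits Ezh2 and Ezh1, and it marks silent genes that other tissues or stages use, the Hox clusters above all. In the female germ line the early germ cell and pluripotency programme is shut down as meiosis begins, and Polycomb complexes are known to restrain meiotic genes such as Stra8 before that step. In growing mouse oocytes the mark forms broad domains, and some of them act as imprints in the embryo.

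Promoters of 7 genes are shown because they stand for the outcomes described below, with every CpG in capitals. Each is the RefSeq sequence of GRCm38.p6 from 250 bases before to 50 bases after the start of a transcript, read 5′ to 3′ on the strand of the gene. For Dazl, Hoxa13 and Vmn2r27 this start is the annotated end of the gene, whereas it lies inside the gene by 785 bp for Stra8, 518 bp for Nobox, 69.8 kb for Prdm1 and 66.0 kb for Olfr183. Stra8 (chr6:34920698-34920997, plus strand), Dazl (chr17:50293571-50293870, minus strand) and Prdm1 (chr10:44458699-44458998, minus strand) lay in a domain in c13 and in none in c7. Hoxa13 (chr6:52260831-52261130, minus strand) lay in a domain at both stages. Nobox (chr6:43309505-43309804, minus strand), the vomeronasal receptor gene Vmn2r27 (chr6:124231735-124232034, minus strand) and the olfactory receptor gene Olfr183 (chr16:58995154-58995453, plus strand) lay in a domain in c7 and in none in c13.
Stra8: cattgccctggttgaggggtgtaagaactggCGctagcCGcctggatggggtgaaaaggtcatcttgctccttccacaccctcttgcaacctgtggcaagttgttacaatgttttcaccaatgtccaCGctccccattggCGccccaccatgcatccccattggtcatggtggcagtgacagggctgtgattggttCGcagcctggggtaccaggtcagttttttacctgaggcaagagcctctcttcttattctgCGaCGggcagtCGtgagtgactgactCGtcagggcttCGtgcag
Dazl: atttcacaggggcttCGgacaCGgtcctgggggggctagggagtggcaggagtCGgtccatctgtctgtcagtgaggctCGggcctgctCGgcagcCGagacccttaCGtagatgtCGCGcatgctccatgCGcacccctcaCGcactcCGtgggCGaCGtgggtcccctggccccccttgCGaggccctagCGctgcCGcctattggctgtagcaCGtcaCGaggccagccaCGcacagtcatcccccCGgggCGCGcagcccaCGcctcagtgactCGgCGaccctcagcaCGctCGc
Prdm1: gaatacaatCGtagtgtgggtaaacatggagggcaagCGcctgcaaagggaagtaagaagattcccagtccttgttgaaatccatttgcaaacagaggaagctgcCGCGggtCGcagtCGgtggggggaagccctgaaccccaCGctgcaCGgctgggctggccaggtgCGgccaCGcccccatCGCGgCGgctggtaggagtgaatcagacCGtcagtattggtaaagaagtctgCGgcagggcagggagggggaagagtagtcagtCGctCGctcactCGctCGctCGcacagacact
Hoxa13: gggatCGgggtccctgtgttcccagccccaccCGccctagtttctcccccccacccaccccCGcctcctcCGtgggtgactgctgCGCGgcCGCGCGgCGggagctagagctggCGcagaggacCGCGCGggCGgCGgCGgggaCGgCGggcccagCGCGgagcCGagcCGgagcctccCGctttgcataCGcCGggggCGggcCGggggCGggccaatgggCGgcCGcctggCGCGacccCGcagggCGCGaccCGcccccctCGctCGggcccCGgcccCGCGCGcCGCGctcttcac
Nobox: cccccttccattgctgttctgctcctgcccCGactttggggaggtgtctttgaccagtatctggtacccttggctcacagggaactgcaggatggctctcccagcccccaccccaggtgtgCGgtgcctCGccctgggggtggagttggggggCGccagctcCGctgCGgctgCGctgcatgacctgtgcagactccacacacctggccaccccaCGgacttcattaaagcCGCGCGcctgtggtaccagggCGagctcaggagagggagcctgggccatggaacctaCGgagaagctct
Vmn2r27: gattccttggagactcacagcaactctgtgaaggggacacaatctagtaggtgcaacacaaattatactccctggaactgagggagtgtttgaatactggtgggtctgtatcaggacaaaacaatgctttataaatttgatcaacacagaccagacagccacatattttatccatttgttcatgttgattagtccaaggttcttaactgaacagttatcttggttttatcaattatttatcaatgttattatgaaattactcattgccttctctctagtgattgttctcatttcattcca
Olfr183: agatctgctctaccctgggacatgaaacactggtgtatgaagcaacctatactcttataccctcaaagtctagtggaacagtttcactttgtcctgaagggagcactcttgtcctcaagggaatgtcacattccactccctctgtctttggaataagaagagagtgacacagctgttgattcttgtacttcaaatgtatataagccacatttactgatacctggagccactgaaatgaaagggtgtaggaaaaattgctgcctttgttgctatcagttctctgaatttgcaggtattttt
The promoter of Hoxa13 held 45 CpGs, and those of Dazl, Prdm1 and Stra8 held 28, 20 and 10. The promoter of Nobox held 13 CpGs, and those of Vmn2r27 and Olfr183 held 0.

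H3K27me3 lay in fewer and broader domains in c13 than in c7 and covered more of the genome. The mark covered 1043 Mb of the autosomes in c13 (42.7%) and 864.9 Mb in c7 (35.4%). The median domain was 200 kb wide in c13 and 110 kb in c7, and the upper quartile was 470 kb in c13 and 260 kb in c7. Domains of 1 Mb or more numbered 235 in c13 and held 386 Mb, 37.0% of its length, against 72 domains with 96.6 Mb, 11.2%, in c7. The widest domain was 5510 kb in c13, at chr5:115620001-121130000 around Ksr2, Med13l and Cit, and 2980 kb in c7, at chr5:118150001-121130000, which lies inside it. Both lists were set on a grid of 10 kb and held no gap below 40 kb, so narrower breaks are not seen in either. Domains of the single grid step made up 4.69% of the c13 list and 4.63% of the c7 list.

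**Figure D1:**
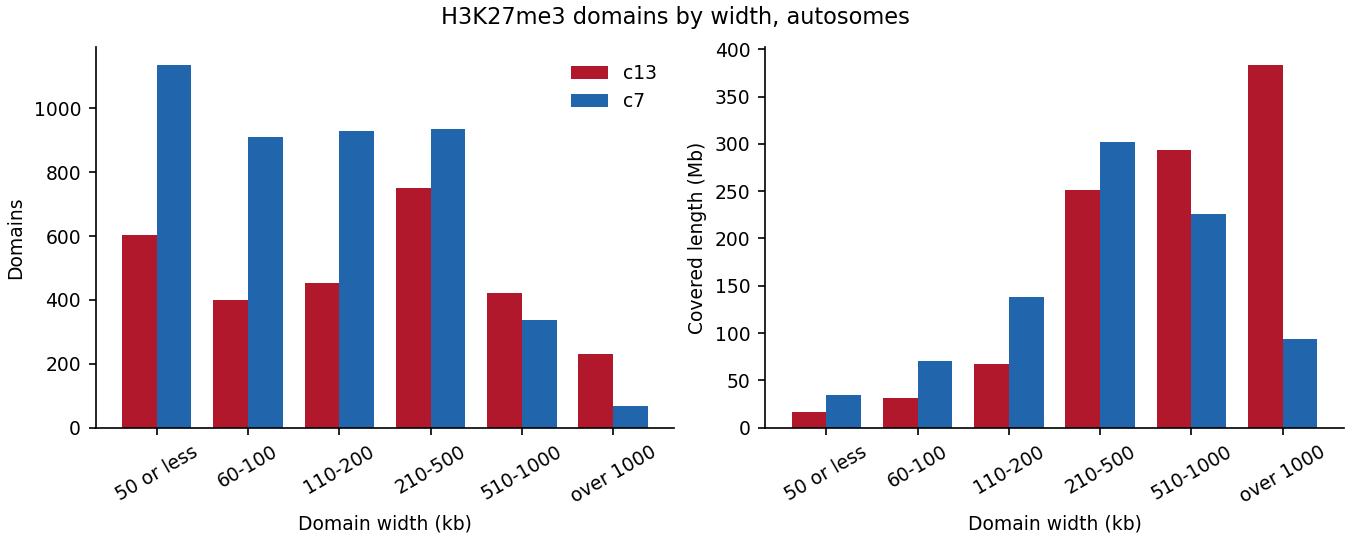
Number of H3K27me3 domains (left) and length they cover in Mb (right) by domain width in kb, for c13 (red) and c7 (blue) on autosomes 1 to 19. Domains over 1000 kb held 383 Mb in c13 and 93.6 Mb in c7, whereas domains of 50 kb or less numbered 602 in c13 and 1135 in c7.

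Some c7 domains were still present in c13, and 1606 were not. Of 4317 c7 domains, 2424 (56.2%, 604 Mb) kept at least 50% of their length in c13, 287 (6.65%) kept less, and 1606 (37.2%, 176 Mb) had no base in common with a c13 domain and were called lost. The lost domains were narrow, with a median of 70 kb, against 150 kb for the kept ones. Of c7 domains of 50 kb or less, 51.4% were lost, against 38.3% of those of 110 to 200 kb, 18.4% of those of 210 to 500 kb and 7.39% of those over 500 kb. The kept domains included 2028 that were covered whole in c13. Only 99 c7 domains were split among 2 or more c13 domains, whereas 1225 (28.4%) were merged, that is, lay under a c13 domain that also covered another c7 domain. The kept domains outnumbered the lost ones in the lists as deposited but not in 2 alternatives. With the narrowest c13 domains dropped until both lists covered about the same length, 1590 were kept and 2682 lost. With domains of 1 Mb or more left out of both lists, 1860 were kept, 2108 lost and 710 merged.

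Seen from c13, 772 of 2860 domains (27%, 149 Mb, median 110 kb) touched no c7 domain and were called gained. A further 1589 (55.6%) covered parts of 1 c7 domain. The remaining 499 (17.4%) merged several c7 domains and held 467 Mb, with a median of 710 kb. Of these, 348 joined 2 c7 domains, 99 joined 3 and 52 joined 4 or more. Among the 235 c13 domains of 1 Mb or more, 166 were of this merging kind. With covered lengths made about equal 163 c13 domains were gained, and with domains of 1 Mb or more left out 328 were merging.

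The extremes of each outcome follow and are not typical, since gained domains had a median of 110 kb and 348 of 499 merging domains joined 2 c7 domains. The merging domain at chr4:150620001-155490000, 4870 kb wide, joined 7 c7 domains over 61 protein-coding genes, the longest being the transcription factor gene Camta1, Rere, Prdm16 and Ajap1. Of its length, 86.2% was already marked in c7. Other merging domains of 7 lay at chr6:125200001-128660000 (3460 kb, with Ano2, Tspan9 and Vwf, the gene of von Willebrand factor) and at chr11:110320001-113650000 (3330 kb, with Slc39a11, Map2k6 and Abca5), where c7 had marked 90.5% and 59.5%. The widest gained domains lay at chr1:72400001-74230000 (1830 kb, with the focal adhesion gene Tns1, Marchf4, Smarcal1 and Ankar), at chr6:116410001-117900000 (1490 kb, with the lipoxygenase gene Alox5, Rassf4, Tmem72 and the chemokine gene Cxcl12) and at chr9:67980001-69400000 (1420 kb, with the nuclear receptor gene Rora, Vps13c and Ice2). The E18.5 list held 0% of the first, 100% of the second and 36.6% of the third.

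The widest lost domain, at chr7:39590001-41600000 (2010 kb), held Vmn2r57 and Vstm2b among 11 genes. The next were at chr12:97110001-98220000 (1110 kb), with 1 gene, Galc, which encodes the lysosomal galactosylceramidase, and at chr15:87670001-88680000 (1010 kb), with Tafa5 and Zdhhc25. The c34 list again covered 77.6%, 77.5% and 99.0% of these 3 domains, and the GV list 68.2%, 85.6% and 86.1%. These 3 do not stand for the rest. Of all 1606 lost domains, 506 (31.5%) had at least 50% of their length in the c34 list and 458 (28.5%) in the GV list. Of the widest kept domains, that at chr5:118150001-121130000 held Med13l and the limb and heart regulator Tbx5, that at chr7:35760001-37930000 (2170 kb) held Zfp536 and Tshz3, and that at chr5:111390001-113730000 (2340 kb) held Myo18b and Sez6l.

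**Figure D2:**
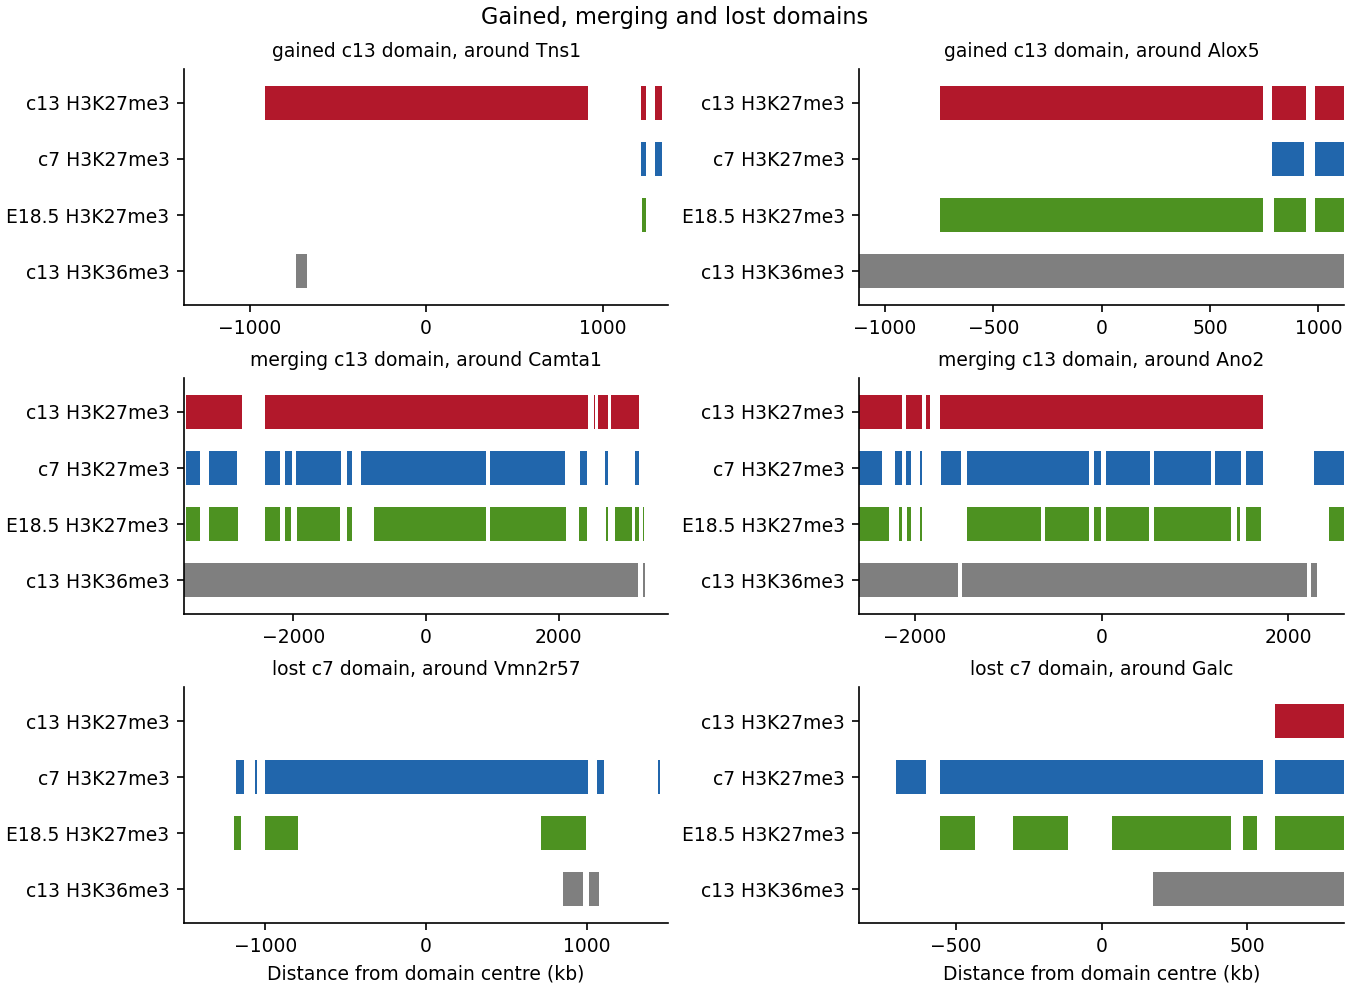
Domains of H3K27me3 in c13 (red), c7 (blue) and E18.5 oocytes (green) and of H3K36me3 in c13 (grey), as distance in kb from the centre of 2 gained c13 domains, 2 c13 domains that merge 7 c7 domains each, and 2 lost c7 domains, each panel named by the longest gene inside. The row of c7 is empty across the gained domains and broken into pieces under the merging ones, and the row of c13 is empty across the lost ones.

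By length, c13 and c7 shared 597.5 Mb, 446.0 Mb was in c13 only and 267.4 Mb in c7 only. Of the c13-only length, 149 Mb lay in gained domains and 93.67 Mb bridged gaps between merged c7 domains. The other 203.3 Mb, called edges, was the rest of c13 domains that overlapped a c7 domain by at least 1 base. The c13 domain at Ddx4, 350 kb wide over a c7 domain of 10 kb, was counted so. More of the c13-only length thus lay in c13 domains that overlapped c7 domains than in gained ones, and growth out of c7 domains was not tested. The order turned in other settings. The c13-only length was 304.0 Mb, against 414.7 Mb in c7 only, without domains of 1 Mb or more, 353.2 Mb against 357.4 Mb with covered lengths made about equal, and 121.2 Mb against 220.7 Mb outside c13 H3K36me3. The c13 list covered more than the c7 list on 16 of 19 autosomes. The ratio of c13 to c7 length had a median of 1.17 over autosomes, a low of 0.828 on chromosome 16 and a high of 1.79 on chromosome 3. The share of c7 domains lost had a low of 9.92% on chromosome 19, a median of 38.0% and a high of 46.7% on chromosome 16. The share merged was highest, 50.4%, on chromosome 19, where c13 covered 69.6% and c7 59.4% of the length.

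**Figure D3:**
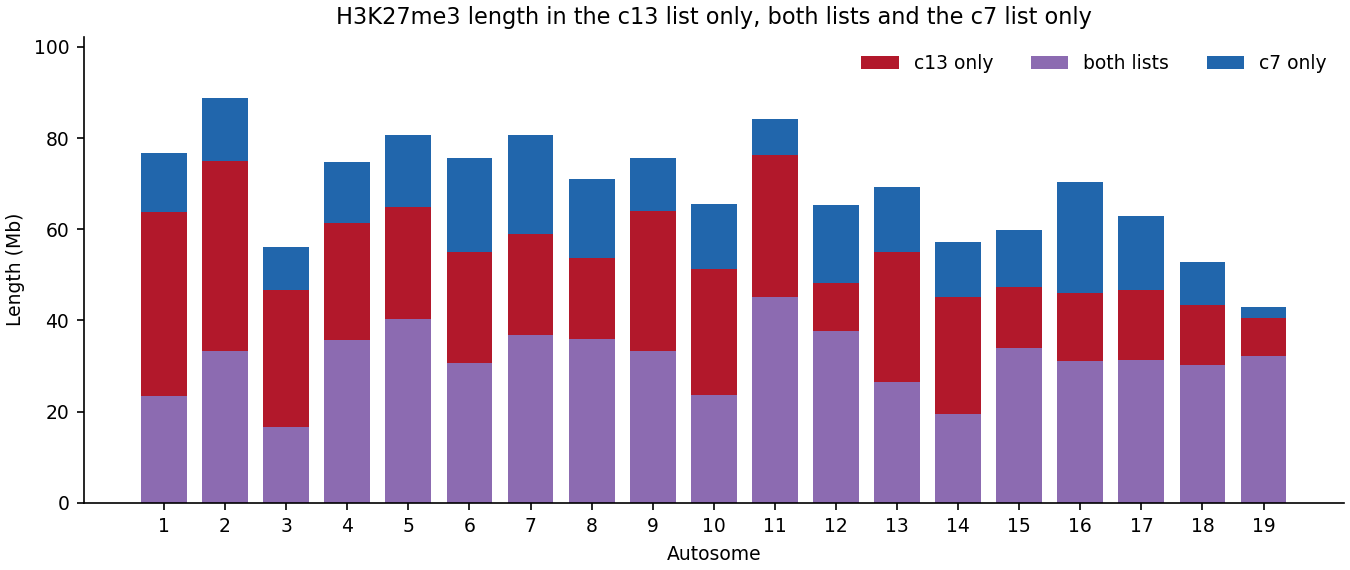
Length in Mb of H3K27me3 in the c13 list only (red), in both lists (purple) and in the c7 list only (blue), stacked for each autosome. The c13-only length lies between 8.43 Mb on chromosome 19 and 41.5 Mb on chromosome 2, and the c7-only length between 2.49 Mb on chromosome 19 and 24.4 Mb on chromosome 16.

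The mark found only in c13 lay in sequence richer in genes than the mark found only in c7. Protein-coding genes stood at 10.3 per Mb in c13-only length and 6.05 per Mb in c7-only length, against 10.9 per Mb in shared length, 7.03 per Mb in unmarked length and 8.46 per Mb over the autosomes. The ratio of c13-only to c7-only density was 1.7, and outside c13 H3K36me3 it was 0.98. Within the c13-only length the density was 12.1 genes per Mb in bridges, 10.3 at edges and 9.13 in gained domains. Density was higher in c13-only than in c7-only length on 17 of 19 autosomes, and the ratio of the densities had a low of 0.931, on chromosome 3, a median of 1.55 and a high of 5.96, on chromosome 15. Gene bodies made up 48.8% of the c13-only length and 28.2% of the c7-only length. No protein-coding gene lay in 164 of 772 gained c13 domains (21.2%), whereas 803 of 1606 lost c7 domains (50%) and 381 of 2424 kept c7 domains (15.7%) held none.

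Autosomes were also cut into windows of 1 Mb and ranked by gene number in quintiles. In the quintile with fewest genes the mark covered 13.6% in c13 and 18% in c7, and in the next 35.1% in c13 and 35.4% in c7. In the middle quintile it covered 49.1% in c13 and 41% in c7, in the one above 56.8% in c13 and 39.1% in c7, and in the quintile with most genes 58.9% in c13 and 43.3% in c7. The difference in the quintile with most genes, 15.6 percentage points, was 3.69 when domains of 1 Mb or more were left out and 3.96 when the narrowest c13 domains were dropped until both lists covered about the same length. H3K36me3 of c13 moved with the same quintiles, covering 9.64% of the windows with fewest genes and 74.9% of those with most.

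**Figure D4:**
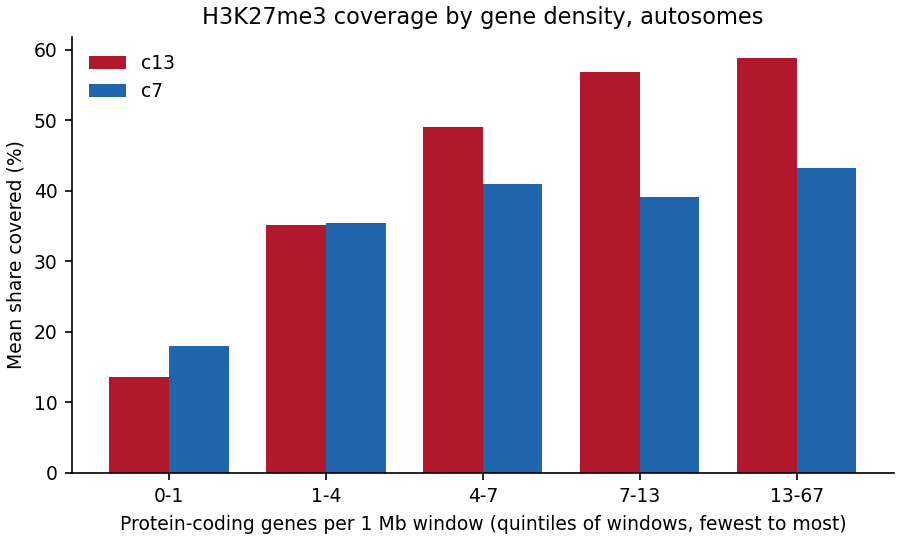
Mean share of 1 Mb windows covered by H3K27me3, in percent, in c13 (red) and c7 (blue), for quintiles of windows with few to many protein-coding genes (range of gene numbers under each pair of bars). Coverage in c13 lies below that of c7 in the first quintile, 13.6% against 18%, and above it in the last, 58.9% against 43.3%.

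H3K36me3 of c13 lay over much of the H3K27me3 that c13 added. It covered 72.8% of the c13-only length and 17.5% of the c7-only length, against 77.1% of shared and 24.4% of unmarked length, and the c13-only share was the higher on 19 of 19 autosomes. The c13 H3K36me3 list covered 45.4% of the autosomes, against 36.8% for that of c34, 24% for E18.5 and 38.8% for GV oocytes. Inside c13 H3K36me3, gene density was 12.3 per Mb in c13-only and 10.5 per Mb in c7-only length. Outside it the densities were 5.01 per Mb in c13-only and 5.11 per Mb in c7-only length, so the ratio of 1.7 over all length turned to 0.98 there. The part of H3K36me3 in these values was not tested.

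The c7-only length was more often H3K27me3 in E18.5 oocytes than the c13-only length was. The E18.5 list held 32.8% of the c13-only and 64.6% of the c7-only length, against 72.8% of shared, 19.7% of unmarked and 40.0% of all autosomal length. The c7-only share was the higher on 19 of 19 autosomes, with a low of 31.6%, a median of 71.4% and a high of 85.3%, against 10.2%, 30.3% and 55.2% for the c13-only share. In c34 the order was the other way: the c34 list held 53.0% of the c13-only and 37.8% of the c7-only length. The c7-only share was close to the 37.2% that the c34 list held of all autosomes. The GV list held 31.2% of the c13-only and 32.2% of the c7-only length, close to its 28.5% of all autosomes. By domain, at least 50% of the length was H3K27me3 at E18.5 in 231 of 772 gained c13 domains (29.9%), in 957 of 1606 lost c7 domains (59.6%) and in 1723 of 2424 kept c7 domains (71.1%).

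A gene was called marked when a domain lay within 1 kb of either annotated end, since the gene table gave no strand. By this rule 12869 of 20665 protein-coding genes (62.3%) had the mark in c13 and 9575 (46.3%) had it in c7. Of these, 7776 were marked at both stages. Genes marked in c13 but not in c7, called gained, numbered 5093, which is 24.6% of all genes and 45.9% of those unmarked in c7. Genes marked in c7 but not in c13, called lost, numbered 1799, which is 8.71% of all genes and 18.8% of those marked in c7. These shares are the background for every list below. With domains of 1 Mb or more left out of both lists 4067 genes were gained and 3432 lost, and with covered lengths made about equal 3646 were gained and 3564 lost. The setting of about equal lengths dropped c13 domains of up to 280 kb and none of c7. Genes marked in c13 only by such domains thus became unmarked in c13 by construction, here and in every list below. Among the 6222 genes without H3K36me3 in the body in c13 the order turned, with 681 gained, 18.6% of those unmarked in c7, and 1231 lost, 48.2% of those marked in c7. Among the 14443 genes with it, 4412 were gained, 59.4% of those unmarked in c7, and 568 lost, 8.09% of those marked in c7. The number marked in c13 minus that in c7 turned or moved by more than 1.5 times in 19 of 27 lists without domains of 1 Mb or more and in 20 of 27 with covered lengths made about equal.

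Gained genes were mostly ones with H3K4me3, the mark of active and poised promoters, and lost genes mostly were not. In c13, H3K4me3 lay at 87.3% of gained and 38.6% of lost genes, against 80.2% of genes marked at both stages and 60.3% of those marked at neither. Over all genes it lay at 72.6%. H3K36me3 of c13 covered at least 20% of the body of 86.6% of gained and 31.6% of lost genes, against 69.9% of all genes. The E18.5 list marked 17.4% of gained and 63.8% of lost genes with H3K27me3, against 38.4% of all genes. The c34 list marked 43.6% of gained and 42.2% of lost genes, both near its 44.3% of all genes. The median gained gene was 21.3 kb long and the median lost gene 10.2 kb. RefSeq promoters were available for 82.3% of gained genes, with a median of 19 CpGs, and for 81.8% of genes marked at neither stage, with a median of 12. For lost genes (79.7%) and genes marked at both stages (76.2%) too few promoters were available, so that their comparison of CpG content is void.

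Genes of meiosis were marked more often in c13. Of 38 such genes, 31 were marked in c13 and 18 in c7. Of these, 15 were gained, 75% of those unmarked in c7, and 2 were lost. The median coverage of the 5 kb windows on both sides of each gene end, which hold 20000 bp at most, was 20000 bp in c13 and 696.5 bp in c7, against 11546 bp in c13 and 442 bp in c7 over all genes. The difference of 13 genes was 8 without domains of 1 Mb or more and 0 with covered lengths made about equal.

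Stra8, which drives germ cells into meiosis, had 20000 bp of domain in its windows in c13 and 0 bp in c7, and lay in a gained domain of 200 kb, chr6:34820001-35020000. Spo11, which cuts DNA to start recombination, had 20000 bp in c13 and 0 bp in c7, within a c13 domain of 3520 kb at chr2:170140001-173660000 that joined 3 c7 domains. Msh4, a crossover protein, Syce1 of the synaptonemal complex, Mlh3, a mismatch repair protein that resolves crossovers, and the helicase gene Hfm1 also had 20000 bp in c13 and 0 bp in c7. The calls of Spo11 and Msh4 ended without domains of 1 Mb or more, those of Stra8 and Mlh3 with covered lengths made about equal, and that of Hfm1 where at least 50% of the body had to be covered. All 4 of Stra8, Spo11, Msh4 and Syce1 carried H3K4me3 and H3K36me3 in c13 as well. This was not particular to gained genes: H3K4me3 lay at 37 of the 38 meiosis genes and H3K36me3 in the bodies of all 38. Over all genes the shares were 72.6% and 69.9%. The lost pair was Ythdc2, an RNA helicase needed for meiotic entry, with 0 bp in c13 and 7271 bp in c7, and 4930447C04Rik (Six6os1), a synaptonemal complex protein, with 2957 bp in c13 and 7765 bp in c7. Neither loss held where at least 50% of the body or both ends had to be marked, and that of 4930447C04Rik also ended with a reach of 5 kb and over its promoter. Dmc1, the meiotic recombinase, and Hormad2, a chromosome axis protein, were marked at both stages. Dmc1 was marked in c7 alone without domains of 1 Mb or more, and in c13 alone where at least 50% of the body, both ends or the promoter had to be marked.

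Genes of pluripotency and early germ cells showed the widest gap between the stages among the lists. Of 26 genes, 21 were marked in c13 and 7 in c7, with 14 gained, 73.7% of those unmarked in c7, and 0 lost. Their median was 15662 bp in c13 and 0 bp in c7. The difference of 14 genes was 9 without domains of 1 Mb or more, where the calls of Tfap2c, Kit and Sall4 ended. Prdm1 and Prdm14, transcription factors that specify primordial germ cells, had 20000 bp in c13 and 0 bp in c7. Both lay in gained c13 domains, of 430 kb at chr10:44360001-44790000 for Prdm1 and of 740 kb at chr1:12400001-13140000 for Prdm14. Tfap2c, their partner in that step, had 20000 bp in c13 and 0 bp in c7 and shared its c13 domain of 3520 kb with Spo11 and with Aurka, a mitotic kinase gene. Kit, the receptor of stem cell factor, and Sall4, a zinc finger protein of stem and germ cells, had the same values, 20000 bp in c13 and 0 bp in c7, in c13 domains of 1130 kb and 1870 kb. Nodal, a ligand of the TGF-beta family, had 17367 bp in c13 and 0 bp in c7. The chromatin protein gene Dppa3, one of the reporters' genes, and its relatives Dppa2 and Dppa4 had 0 bp at both stages.

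Genes of the germ cell list differed less. Of 21, 16 were marked in c13 and 13 in c7, with 4 gained, 50% of those unmarked in c7 and near the background, and 1 lost. Dazl, an RNA-binding protein of germ cells, had 20000 bp in c13 and 0 bp in c7, in a c13 domain of 2090 kb. Nanos3, an RNA-binding protein that keeps primordial germ cells alive, had 12820 bp in c13 and 0 bp in c7. Ddx4, the germ cell helicase, was marked at both stages, with 20000 bp in c13 and 7633 bp in c7, where the domain was 1 step of 10 kb at one end of the gene. The lost gene was Slc25a31, a mitochondrial carrier of germ cells, with 0 bp in c13 and 20000 bp in c7. When domains of 1 Mb or more were left out, 2 fewer germ cell genes were marked in c13 than in c7, and the calls of Dazl and Nanos3 ended. With covered lengths made about equal the counts at the stages were equal. The difference of 3 genes was 6 where at least 50% of the body or both ends had to be marked. Ddx4 was marked in c13 alone in those 2 settings and without domains under 30 kb.

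Of 26 oocyte factors, 19 were marked in c13 and 15 in c7. The 7 gained were 63.6% of those unmarked in c7, and the 3 lost were 20.0% of those marked in c7, near the 18.8% over all genes. The gained genes included Figla, which switches on the zona pellucida genes, with 14503 bp in c13 and 0 bp in c7, Zp3 of the zona pellucida, with 18520 bp in c13 and 0 bp in c7, and Foxo3, which holds primordial follicles dormant, with 20000 bp in c13 and 0 bp in c7. The oocyte linker histone gene H1f8 had 15312 bp in c13 and 0 bp in c7. The lost genes were the transcription factor gene Nobox, needed for early follicles, with 0 bp in c13 and 11327 bp in c7, Mos, whose kinase holds eggs in meiotic arrest, with 0 bp in c13 and 11448 bp in c7, and Nlrp14, with 0 bp in c13 and 20000 bp in c7. Nobox and Nlrp14 were marked in the E18.5 list and not in the c34 or GV list, and Mos in none of the 3. Lhx8, a regulator of early oocytes, and Gdf9, an oocyte growth factor, were marked at both stages, Gdf9 with 12904 bp in c13 and 12904 bp in c7. With covered lengths made about equal, 1 oocyte factor fewer was marked in c13 than in c7, H1f8 being unmarked at both stages and Gdf9 unmarked in c13. Without domains of 1 Mb or more the counts were equal, Zp3 being unmarked at both stages and Lhx8 unmarked in c13.

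Genes of the machinery that writes and reads these marks were also among the gained ones. Of 32 Polycomb genes, 24 were marked in c13 and 13 in c7, with 11 gained, 57.9% of those unmarked in c7, and 0 lost. H3K36me3 of c13 lay in the bodies of 25 of them, and among all genes with it 59.4% of those unmarked in c7 were gained. The difference of 11 genes was 4 without domains of 1 Mb or more and 7 with covered lengths made about equal, where the calls of Pcgf6 and Phf19 ended. Kdm2b, which brings Polycomb to CpG islands, Pcgf6, a subunit of a variant Polycomb complex, and Phf19, an accessory subunit of Polycomb repressive complex 2, each had 20000 bp in c13 and 0 bp in c7. Ezh1 had 20000 bp in c13 and 5349 bp in c7, where domains on both sides lay more than 1 kb from the gene but within 5 kb of it. Of 15 genes of DNA and histone methylation, 12 were marked in c13 and 5 in c7, with 7 gained and 0 lost. The difference of 7 genes was 2 where at least 50% of the body had to be covered, 3 where both ends had to be marked, 4 by promoter and 2 with covered lengths made about equal. The H3K36 methyltransferase genes Nsd1 and Nsd2, counted as gained, had 0.202% and 0% of their bodies covered in c13. The de novo methyltransferase gene Dnmt3b had 20000 bp in c13 and 0 bp in c7, its relatives Dnmt3a and Dnmt3l had 20000 bp at both stages, and the maintenance enzyme gene Dnmt1 had 0 bp at both. Setd2, which writes H3K36me3, was marked at neither stage, although 6134 bp of its windows in c13 and 0 bp in c7 lay in domains.

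Imprinted genes were counted by the kind of imprint. Of 19 genes whose imprint in the mouse embryo rests on maternal H3K27me3, 15 were marked in c13 and 9 in c7, with 6 gained, 60% of those unmarked in c7, and 0 lost. The difference of 6 genes was 2 without domains of 1 Mb or more, where the calls of Slc38a4 and Enc1 ended, and 3 where at least 50% of the body had to be covered. Sfmbt2, a Polycomb group gene, the amino acid transporter gene Slc38a4 and Enc1 had 20000 bp in c13 and 0 bp in c7. The GV list marked 19 of the 19 and the c34 list 18, against 28.4% and 44.3% of all genes. Of 15 genes imprinted by maternal DNA methylation, 9 were marked in c13 and 8 in c7, with 2 gained, Zdbf2 and Mcts2, and 1 lost, Snrpn, with 0 bp in c13 and 10000 bp in c7. Zdbf2 was not free of the mark in c7, where 35.0% of its body but 0 bp of its end windows lay in a domain. The call of Zdbf2 ended with covered lengths made about equal and by promoter, and that of Snrpn where both ends had to be marked. When domains of 1 Mb or more were left out or covered lengths made about equal, 1 of these genes fewer was marked in c13 than in c7.

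Genes that every cell uses were among the gained ones, in the ribosomal list at a share above the 45.9% over all genes and in the other lists near or below it. Among all genes with c13 H3K36me3 in the body, which most of these genes had, that share was 59.4%, and no list here exceeded it. Of 76 ribosomal protein genes, 50 were marked in c13 and 21 in c7, with 31 gained, 56.4% of those unmarked in c7, and 2 lost. The difference of 29 genes was 14 without domains of 1 Mb or more and 14 with covered lengths made about equal, where the call of Rpl5 ended. Rpl5 had 18498 bp in c13 and 0 bp in c7, and Rpl19 had 18491 bp in c13 and 0 bp in c7. Of 20 housekeeping genes, 11 were marked in c13 and 4 in c7. The 7 gained were 43.8% of those unmarked in c7, near the background, and included Polr2a, the largest subunit of RNA polymerase II, and the transferrin receptor gene Tfrc, each with 20000 bp in c13 and 0 bp in c7. The difference of 7 housekeeping genes was 4 without domains of 1 Mb or more and 3 with covered lengths made about equal, where the call of Polr2a ended. Actb and Gapdh had 0 bp at both stages. Of 38 proteasome subunit genes, 22 were marked in c13 and 11 in c7, and the 11 gained were 40.7% of those unmarked in c7, below the background. That difference of 11 genes was 6 in both of these settings. H3K4me3 of c13 lay at 75 of the 76 ribosomal protein genes and 19 of the 20 housekeeping genes, and H3K36me3 in the bodies of 67 and 18. Over all genes the shares were 72.6% for H3K4me3 and 69.9% for H3K36me3 in the body.

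Of 21 cell cycle genes, 16 were marked in c13 and 9 in c7. The 9 gained were 75% of those unmarked in c7, and the 2 lost were 22.2% of those marked in c7. The counts at the stages were equal when domains of 1 Mb or more were left out, where the calls of Mki67, Ccnb1 and Aurka ended, and the difference of 7 genes was 4 with covered lengths made about equal. Mki67, a marker of dividing cells, had 20000 bp in c13 and 1450 bp in c7, within a c13 domain of 3850 kb, and the mitotic cyclin gene Ccnb1 had 17748 bp in c13 and 0 bp in c7. Cdkn1a, an inhibitor of cyclin-dependent kinases, had 19744 bp in c13 and 0 bp in c7. Lost were the germ cell cyclin gene Ccna1, with 0 bp in c13 and 20000 bp in c7, and Cdkn2b, another kinase inhibitor, with 0 bp in c13 and 8712 bp in c7. The call of Mki67 also ended with a reach of 5 kb, and that of Cdkn2b where both ends had to be marked and by promoter.

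**Figure D5:**
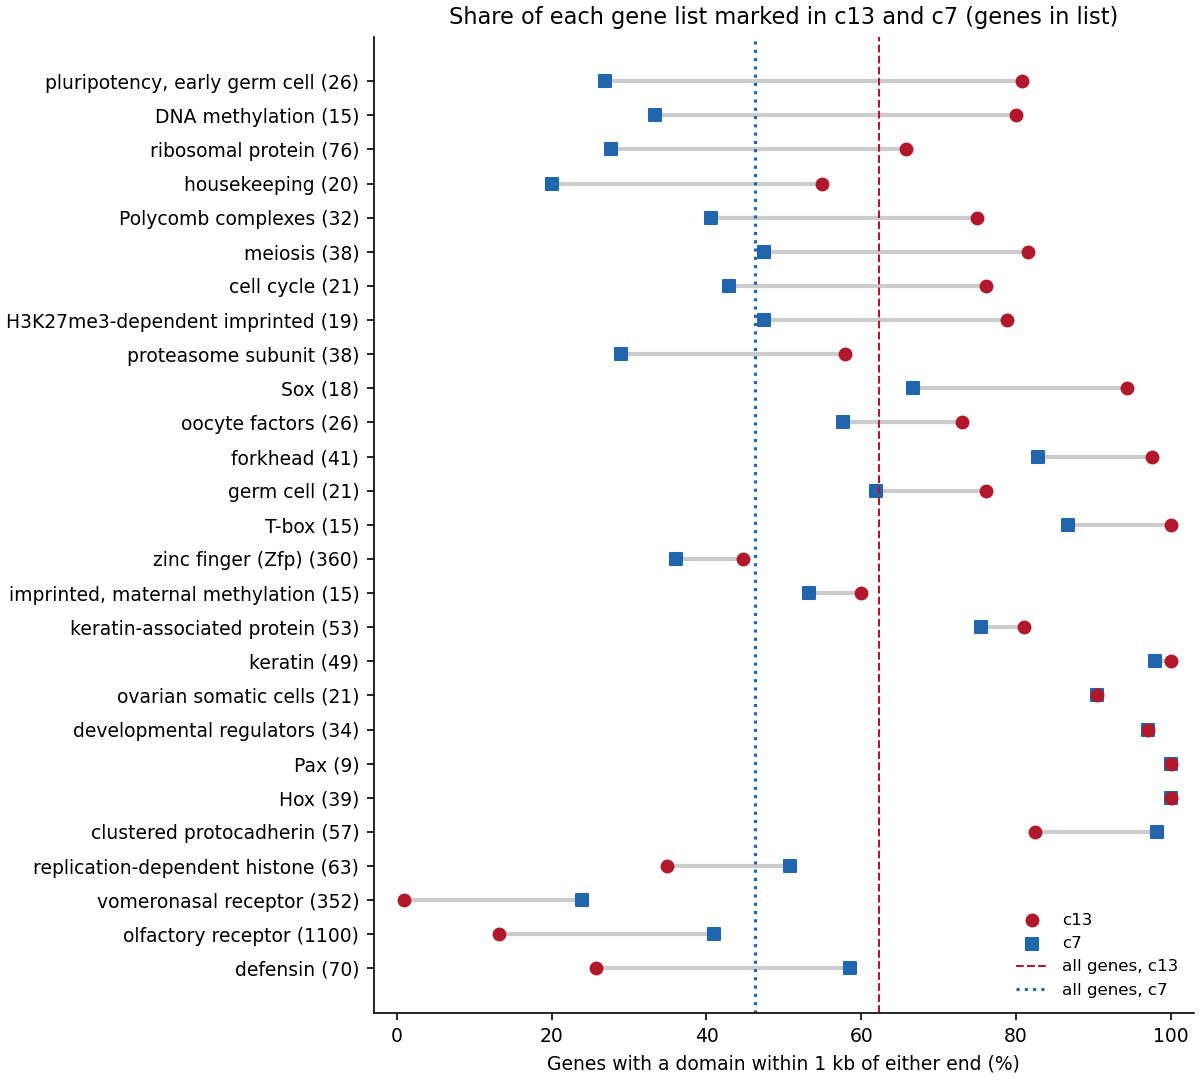
Share of genes in each list or family with an H3K27me3 domain within 1 kb of either end, in percent, in c13 (red circles) and c7 (blue squares), with the number of genes in brackets and the shares over all genes, 62.3% in c13 and 46.3% in c7, as dashed and dotted lines. The gap is widest for pluripotency and early germ cell genes, 80.8% in c13 and 26.9% in c7, and runs the other way for defensins, olfactory and vomeronasal receptors, histones and protocadherins. For 8 lists (germ cell, oocyte factors, maternal methylation imprints, keratin, keratin-associated, Zfp, forkhead and Sox) the direction turned when domains of 1 Mb or more were left out, covered lengths were made about equal, or both.

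Clustered families of sensory receptors and antimicrobial peptides had many of their members among the 1799 lost genes. Of 1100 olfactory receptor genes, 145 were marked in c13 and 451 in c7, with 36 gained and 342 lost, 75.8% of those marked in c7. The lost share was 18.8% over all genes and 48.2% among genes without c13 H3K36me3 in the body, which 155 of the 1100 had. The 342 lay at 63 lost or shrunken c7 domains, so they are not separate events. Olfr183 had 0 bp in c13 and 20000 bp in c7, where its domain of 200 kb lay at chr16:58920001-59120000, and Olfr32 and Olfr78 had the same values. Of 352 vomeronasal receptor genes, which detect pheromones, 3 were marked in c13 and 84 in c7, and all 84, at 39 c7 domains, were lost. Vmn2r27 had 0 bp in c13 and 20000 bp in c7, in a c7 domain of 540 kb at chr6:124040001-124580000. Most of both families were unmarked in c7 as well, 649 olfactory and 268 vomeronasal receptor genes. The E18.5 list marked 506 of the 1100 olfactory and 115 of the 352 vomeronasal receptor genes, and the c34 list 248 and 32. Over all genes these lists marked 38.4% at E18.5 and 44.3% in c34. Members of such families are alike in sequence, and the treatment of reads that match several places is not given in the sources used here.

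Of 70 defensin genes, which encode antimicrobial peptides, 18 were marked in c13 and 41 in c7, with 1 gained and 24 lost. The lost were 58.5% of those marked in c7, against 18.8% over all genes and 48.2% of genes without c13 H3K36me3 in the body. H3K36me3 lay in the bodies of 22 of the 70. Defb1 had 0 bp in c13 and 20000 bp in c7, and the 24 lay at 4 c7 domains. Of 63 replication-dependent histone genes, 22 were marked in c13 and 32 in c7. The gained were 25.8% of those unmarked in c7, below the 45.9% over all genes. The lost were 56.2% of those marked in c7, and H3K36me3 of c13 lay in the bodies of 10 of the 63. The 8 gained lay in 1 c13 domain of 170 kb on chromosome 3, with H3c14 at 10664 bp in c13 and 0 bp in c7, and the 18 lost lay at 2 c7 domains, with H3c6 on chromosome 13 at 0 bp in c13 and 10911 bp in c7. Clustered protocadherin genes, which give neurons their surface identity, were marked in 47 of 57 cases in c13 and 56 in c7. The 9 lost were 16.1% of those marked in c7, below the 18.8% over all genes, and with only 1 unmarked in c7 hardly any could be gained. They were at 2 c7 domains on chromosome 18 and included Pcdhb3, with 0 bp in c13 and 13787 bp in c7. With covered lengths made about equal the differences were -32 histone genes and -56 protocadherin genes, against -10 and -9, and the call of H3c14 ended. These moves follow by construction from dropping c13 domains of up to 280 kb and are not shifts of the mark.

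Classic Polycomb targets stayed in domains at both stages. All 39 autosomal Hox genes were marked in c13 and in c7, in 4 domains at each stage, and Hoxa13 had 12028 bp in c13 and 12028 bp in c7. Its domain measured 550 kb in c13 and 420 kb in c7. All 9 Pax genes were marked at both stages. With covered lengths made about equal, which by construction unmarks genes at c13 domains of up to 280 kb, 9 fewer Hox genes and 4 fewer Pax genes were marked in c13 than in c7. In that setting 6 fewer developmental regulators were marked in c13, and without domains of 1 Mb or more 7 fewer. Of 34 developmental regulators, 33 were marked in c13 and 33 in c7. Gata2, a regulator of blood formation, was the 1 gained, with 20000 bp in c13 and 0 bp in c7, and En1, a regulator of the midbrain and limb, the 1 lost, with 0 bp in c13 and 15505 bp in c7. En1 was marked in the c34, E18.5 and GV lists. In the list for somatic cells of the ovary, 19 of 21 genes were marked in c13 and 19 in c7. Among them Foxl2, the granulosa cell regulator, had 12520 bp in c13 and 12520 bp in c7. Kitl, the ligand of Kit, was the 1 lost, with 0 bp in c13 and 20000 bp in c7, and Upk3b the 1 gained. Without domains of 1 Mb or more 4 fewer genes of that list were marked in c13 than in c7 and with covered lengths made about equal 5 fewer. The calls of Upk3b and Gata2 ended without domains of 1 Mb or more.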

How the data were processed

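Positions of H3K27me3 were taken from the 2 lists that the authors deposited for c13 and c7. Per the file headers each holds a chromosome, a start and an end, in an other unit than counts, namely positions in base pairs with no score. The submitters' processing notes list 2 builds, mm10 and GRCm38.p3, and these tools: SICER 0.0.41, MACS2 2.1.1, Bowtie2 2.3.4.1, Trim Galore 0.4.1, cutadapt 1.9.1, Picard 2.18.23, SAMtools 1.7, deepTools 3.5.0 and bedtools 2.29.2. How H3K27me3 was called, with which threshold and input, and whether libraries were pooled, is not given in the sources used here. Depth is unknown, so a longer list can come from deeper libraries, and the grid and gap of a caller set how narrow and how close domains can be.

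Lists were set on a grid of 1 kb over the autosomes, 2442 Mb from the first to the last base that any list or gene reached. Gene positions came from RefSeq on GRCm38.p6, which shares its primary assembly with the lists. Coordinates are 1-based. Domains were compared by overlap of at least 1 base, density used gene midpoints, and H3K36me3 marked a gene body from 20% coverage. Members of 12 gene lists and 15 families were matched by symbol: 293 entries, 2 by an older symbol and 5 not autosomal and protein coding. The comparison, lists and rules were chosen with earlier results of these data known. Genes named were those that changed call, at most 8 per list and direction by the difference in covered base pairs of the 5 kb windows, ties by symbol, up to 4 per list with no change, and up to 4 of the longest genes in the 3 widest lost, gained and kept domains and in the 3 that merged most. The text names some of these genes, and others are not reported here. Overlap and gene calls were tested on simulated data, with 0 errors in 4400 domains and 0 in 400 genes. Python 3.11.15, pandas 2.3.3, numpy 2.4.6 and matplotlib 3.10.9 were used. Alternatives changed overlap shares, gaps, widths, covered length, chromosomes, gene calls and windows. After seeing the data, a call by promoter and values outside c13 H3K36me3 were added. Input libraries have no list here, and chromosomes X and Y are described apart.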

Additional observations from a re-analysis of the deposited data

Results flagged for a closer look

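Chromosome X was outside the comparison of autosomes and carried a loss with little gain. Of X, c13 covered 9.56 Mb (5.6%) in 96 domains and c7 covered 27.5 Mb (16.1%) in 212 domains. The c13-only length was 0.42 Mb, while 18.4 Mb lay in the c7 list and outside the c13 list. Of 212 c7 domains, 146 (68.9%) were lost, and 4 c13 domains were gained. Of 966 protein-coding genes on X, 163 were marked in c13 and 381 in c7, with 3 gained and 221 lost. The E18.5 list covered 33.2% of X, the c34 list 11% and the GV list 13.8%.

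Chromosome Y held 0 domains in c13 and 1 in c7, 10 kb wide, in a line described for making oocytes.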

How the results depend on the processing

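Each stage had 1 list of unknown depth and threshold, so no value has an error and no call was tested. Of 87 values of the 13 main results under 14 alternatives, 69 stayed within 1.5 times the reported value, 17 moved by more and 1, the density ratio, turned direction. The order within pairs of values turned as well: c13-only against c7-only length in 3 settings, kept against lost c7 domains in 2 and gained against lost genes in 1, as given beside those results. Joining domains within 30 kb changed nothing, because no gap was below 40 kb. Dropping c13 domains of up to 280 kb left 860.7 Mb in c13, about the covered length of c7, and by construction gave 2682 lost and 1590 kept c7 domains, 163 gained c13 domains and 3564 lost genes. The difference in coverage, c13 minus c7, was then -6.71 percentage points in the quintile of windows with fewest genes and 3.96 in that with most. Leaving out domains of 1 Mb or more, which fall mainly in c13, gave 710 merged c7 domains, 328 merging c13 domains, 353.7 Mb in both lists, 414.7 Mb in c7 only and 3432 lost genes, with differences of -9.53 and 3.69 percentage points in the same quintiles. Counting all genes of the table gave -10.3 points in the quintile with fewest genes, against -4.44. Outside c13 H3K36me3 the density ratio was 0.98, against 1.7, with 121.2 Mb in c13 only and 137.0 Mb in both lists, and 681 genes without H3K36me3 in the body were gained. The cause of these moves was not tested.

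Of the 80 named list members no call turned, but 16 differences between the stages ended without domains of 1 Mb or more and 9 at equal covered length. The number of genes marked in c13 minus that in c7 turned in 8 lists. Without domains of 1 Mb or more it was -2 for germ cell genes, -1 for maternal methylation imprints, -48 for keratin, -22 for keratin-associated, -23 for Zfp, -7 for forkhead and -2 for Sox genes. At equal covered length it was -1 for oocyte factors, -1 for maternal methylation imprints and -2 for forkhead genes. No paired analysis was possible because each stage has 1 list and no test was made.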

Other observations

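Of 360 genes with a Zfp symbol, 161 were marked in c13 and 130 in c7, with 76 gained at 52 c13 domains and 45 lost at 30 c7 domains. The gained ones were 33.0% of those unmarked in c7, below the 45.9% over all genes. The lost ones were 34.6% of those marked in c7, above the 18.8% over all genes, and included Zfp110, Zfp128 and Zfp329, neighbours on chromosome 7 with 0 bp in c13 and 20000 bp in c7. The difference of 31 genes turned to -23 without domains of 1 Mb or more and was 3 with covered lengths made about equal.

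Over all genes the marked share was 62.3% in c13 and 46.3% in c7. Of 41 forkhead genes, 40 (97.6%) were marked in c13 and 34 (82.9%) in c7, and of 15 T-box genes 15 in c13 and 13 (86.7%) in c7, differences close to that over all genes. Of 18 Sox genes, 17 (94.4%) were marked in c13 and 12 (66.7%) in c7, a wider difference. The forkhead and Sox directions turned without domains of 1 Mb or more, and the T-box counts were equal with covered lengths made about equal. Sox2, a core factor of pluripotency, had 12467 bp in c13 and 0 bp in c7, and Sox7 had 17027 bp in c13 and 0 bp in c7. Foxo1 had 20000 bp in c13 and 0 bp in c7, a call that ended without domains of 1 Mb or more, and Foxj2 had 0 bp in c13 and 20000 bp in c7. Keratin genes, which lie in a few clusters, were marked in 49 of 49 cases in c13 and 48 in c7, a direction that also turned without domains of 1 Mb or more.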
